A study of Mus musculus with 6 samples.

Results

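The gelsolin family is a set of actin-binding proteins built from repeats of one calcium-binding fold. Its members cut actin filaments, cap the fast-growing barbed end or bundle filaments, and most are switched on by calcium and off by the membrane lipid PIP2. In blood cells, actin turnover of this kind serves migration, secretion, phagocytosis and the shape changes of platelets. The 8 mouse members examined were Scin, Gsn, Capg, Avil, Vil1, Svil, Flii and Vill. They were taken by name, and the family was selected on Scin's measured difference between miR-155 knockout and wild-type arrays. That contrast is therefore given below for all 8 as a description without a test. Each member had 1 row in the deposited table, so all 8 of the 8 were among the 14860 named genes measured.

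RNA came from cultures of primary bone marrow progenitors of female C57Bl/6 mice, 12 weeks old and treated with fluorouracil (5-FU), a drug that kills dividing marrow cells. All cultures overexpressed Hoxa9 and Meis1 from retroviral MSCV constructs, with GFP and YFP as reporters, and were grown in DMEM with 15% fetal calf serum, IL3, SCF and IL6. Of the 6 arrays, 3 held RNA of cells lacking miR-155 (knockout) and 3 that of wild-type cells, all with the same 2 transgenes. The design text calls the experiments independent, the labels do not tie arrays to animals, and the knockout allele is not described. No array of untransduced cells was analysed here, so values apply to Hoxa9 and Meis1 cultures only.

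The 2 mature RNAs made from the Mir155 gene show what the knockout cells lack, going by their label. They lie at chr16:84714143-84714165 and chr16:84714182-84714202 on the plus strand of GRCm38.p6, per RefSeq. The capitals mark the seed, bases 2 to 8, by which a microRNA pairs with its target mRNAs.
mmu-miR-155-5p: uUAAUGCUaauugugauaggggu
mmu-miR-155-3p: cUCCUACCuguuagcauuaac
No transcript sequence was used, so whether a member's mRNA holds a match to either seed was not tested.

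The labelled cell type was checked against myeloid progenitor genes. Mpo, a myeloid granule enzyme, had a mean log2 level of 13.18 in knockout and 12.94 in wild-type arrays, and the granule protease Elane had 13.69 and 13.71. Kit, the SCF receptor of progenitors, stood at 9.74 and 9.91. All were far above background. No row was named Mir155, so the genotype labels were not checked on that gene. Hoxa9 differed by −0.07 and Meis1 by −0.07 between the groups on the log2 scale. Array medians ran from 6.55 to 6.66. Over all genes the median difference, always taken as knockout minus wild type, was −0.03. On the first principal component, which held 37.2% of the variance, knockout 1, knockout 2 and wild type 2 lay on one side and the other 3 arrays on the other. The 95th percentile of 718 olfactory receptor genes, 5.98, served as the background level, below which a signal was not told from noise. Levels on the array depend on the probes of each gene, so levels were compared between arrays and not between genes.

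Across the family, 4 of the 8 members had no overlap between the 3 knockout and the 3 wild-type arrays. Scin lay higher in the knockout, and Gsn, Flii and Vill lay lower. Capg, Avil, Svil and Vil1 overlapped. Over all 14860 genes, the arrays did not overlap with the knockout higher in 2.88% and with the knockout lower in 10.4%. Since this contrast was used to select the family, nothing is read from these shares.

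**Figure D1:**
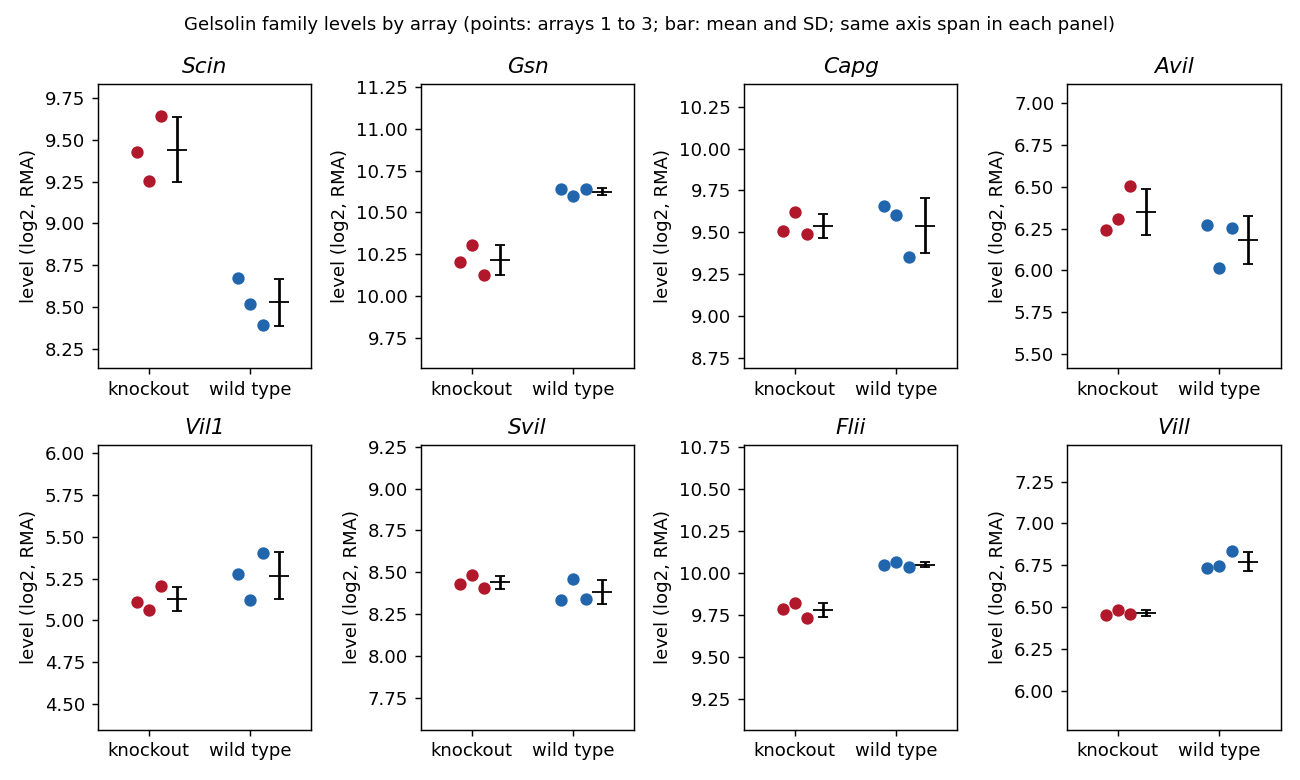
Log2 RMA level (vertical axis) of the 8 gelsolin family genes on 3 knockout arrays (red) and 3 wild-type arrays (blue), with the mean and SD of each group as a black bar; every panel spans the same number of log2 units. Scin sits between 9.25 and 9.64 on the knockout arrays and between 8.39 and 8.68 on the wild-type arrays, while Gsn, Flii and Vill sit lower on all 3 knockout arrays.

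Scin encodes scinderin, also called adseverin, which cuts and caps filaments and is known for clearing cortical actin ahead of secretion in adrenal chromaffin cells. Its log2 level was 9.43, 9.25 and 9.64 on knockout arrays 1 to 3 and 8.68, 8.52 and 8.39 on wild-type arrays 1 to 3. The lowest knockout array stood 0.58 above the highest wild-type array. The means were 9.44 ± 0.20 (SD, n = 3) and 8.53 ± 0.14 (SD, n = 3), so the knockout was higher by 0.91 (standard error 0.12). This is 1.88-fold on a linear scale and was the 12th highest difference among the 14860 genes. Scin was also the member with the widest spread within the knockout, over a range of 0.39. Its difference was 0.82 among the 3 arrays on one side of the first principal component and 1.11 among the 3 on the other. Each side held only 1 array of one genotype, and the sides came from these same arrays. Where the groups did not overlap (Scin, Gsn, Flii and Vill), any such split gives the same sign, so it is no replication.

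Gsn encodes gelsolin, the founding member, which cuts and caps filaments in most cell types and has a secreted plasma form. Its level was 10.21, 10.31 and 10.13 on the knockout arrays and 10.64, 10.60 and 10.64 on the wild-type arrays. All 3 knockout arrays lay below all 3 wild-type arrays, and the wild-type arrays spanned only 0.04. The difference of −0.41 (standard error 0.08) is a 1.33-fold lower level in the knockout. It was −0.34 and −0.51 on the 2 sides of the first principal component. The table gives 1 value for the gene, so the cytoplasmic and the plasma form were not told apart. A RefSeq long noncoding RNA gene, Gm39795, overlaps Gsn, and signal of the 2 genes could not be separated here.

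Scin and Gsn, which both cut filaments, lay on opposite sides of 0. Taken on each array, the Scin value minus the Gsn value was −0.78, −1.06 and −0.48 in the knockout and −1.96, −2.08 and −2.24 in wild-type cells. The 2 sets did not overlap, which follows from Scin being higher and Gsn lower on every knockout array. The pair was taken because these members differed most in opposite directions, so the separation adds no support. The size of such a value depends on the probes, but its shift between groups does not change when an array is rescaled by a constant. Its mean was −0.77 ± 0.29 in the knockout and −2.09 ± 0.14 in wild-type cells (SD, n = 3 each), so the knockout was higher by 1.32 on the log2 scale, or 2.50-fold.

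Flii encodes the flightless-1 homologue, which joins gelsolin repeats to leucine-rich repeats and also acts as a coactivator of nuclear receptors. Its level was 9.78, 9.82 and 9.73 in the knockout and 10.05, 10.06 and 10.04 in wild-type cells. Every knockout array lay below every wild-type array, by at least 0.22. The difference of −0.27 (standard error 0.07) is a 1.21-fold lower level. It was −0.26 and −0.31 on the 2 sides of the first principal component.

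Vill encodes villin-like protein, a relative of villin that is less studied than the other members. Its level was 6.45, 6.48 and 6.46 in the knockout and 6.73, 6.74 and 6.83 in wild-type cells. The 3 knockout values spanned 0.03 and lay 0.25 or more below the wild type. The difference of −0.30 (standard error 0.07) is a 1.24-fold lower level. It was −0.28 and −0.32 on the 2 sides of the first principal component. Both groups lay above the background level of 5.98 by less than 1 log2 unit.

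The remaining 4 members showed no separation of the genotypes. Capg, which caps barbed ends without cutting and is a macrophage protein, stood at 9.51, 9.62 and 9.49 in the knockout and 9.66, 9.60 and 9.35 in wild-type cells. Its means were 9.54 in both groups, and the standard error of their difference was 0.10. Svil encodes supervillin, which ties actin and myosin II to membranes. Svil stood at 8.43, 8.48 and 8.41 against 8.33, 8.46 and 8.34, higher by 0.06 (standard error 0.07). In both genes the groups overlapped. Svil is overlapped in RefSeq by the genes Gm52363 and Gm34326, so its signal has the same limit as that of Gsn.

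Avil and Vil1 are the members best known outside blood. Avil encodes advillin, found in sensory neurons and tuft cells, and stood at 6.24, 6.30 and 6.50 in the knockout and 6.27, 6.01 and 6.26 in wild-type cells. Its means, 6.35 in the knockout and 6.18 in wild-type cells, lay little above the background level of 5.98. Its difference of 0.17 (standard error 0.11) came with overlapping groups. On the 2 sides of the first principal component it was 0.26 and 0.24, with the knockout arrays above the wild-type arrays within each side. With the side as a term in the model the Avil difference was 0.25 (standard error 0.06). The side was taken from these same arrays, so the term takes up their spread and the smaller standard error is no added support. Without wild type 2 the Avil difference was 0.09 (standard error 0.10). Vil1 encodes villin, which bundles the filaments of gut and kidney microvilli, and stood at 5.11, 5.07 and 5.21 against 5.28, 5.12 and 5.40. Vil1 was the 1 member under the background level in both groups, so its difference of −0.14 (standard error 0.09) is not read as expression. Of 10 measured markers of epithelium, tuft cells and brush border, 8 were under that level. The tuft cell genes Pou2f3, Trpm5 and Dclk1 were among them.

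**Figure D2:**
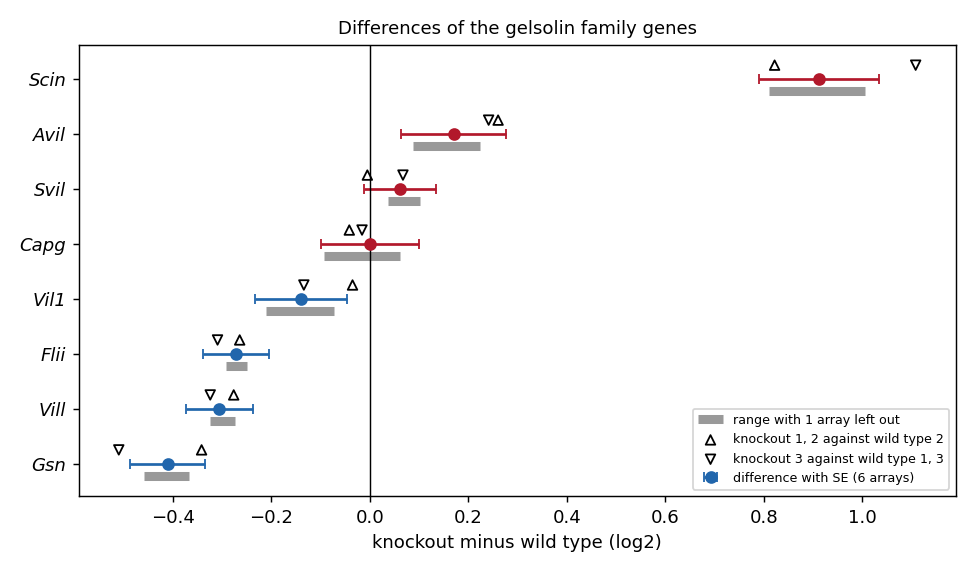
Knockout minus wild-type difference (log2, horizontal axis) of each member with its limma standard error (coloured point and bar), the range when 1 of the 6 arrays is left out (grey bar) and the difference within each side of the first principal component (open triangles). Scin stays between 0.81 and 1.01 and Gsn between −0.46 and −0.37 with 1 array left out, and the Capg range crosses 0.

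The promoters of Scin and Gsn are shown because these 2 members differed most and in opposite directions. RefSeq promoter windows, from 250 bases before to 50 bases after a start site, were used for 7 of the 8 members (Svil was not analysed here), 9 windows in all, of which Gsn had 3. Each was searched on both strands for 6 motifs. The MEIS motif was spelled TGACAG and the HOX-PBX motif TGATNNAT. The GATA motif was spelled AGATAA. The ETS motif was spelled CGGAAG. For RUNX the letters were TGTGGT. The last was the CArG box, which serum response factor binds. MEIS and HOX-PBX motifs were included because every culture overexpressed Meis1 and Hoxa9. The Scin window lies at chr12:40134179-40134478 on the minus strand and the second Gsn window at chr2:35266494-35266793 on the plus strand of GRCm38.p6. Of the 3 Gsn windows, the second is shown because it held the most matches. Both are printed 5′ to 3′ along the gene, with motif matches in capitals.
Scin: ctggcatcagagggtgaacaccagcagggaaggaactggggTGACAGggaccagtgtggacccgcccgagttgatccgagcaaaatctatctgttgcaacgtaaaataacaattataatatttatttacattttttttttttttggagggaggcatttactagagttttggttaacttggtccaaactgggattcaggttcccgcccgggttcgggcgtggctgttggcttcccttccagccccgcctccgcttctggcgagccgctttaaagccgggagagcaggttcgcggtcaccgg
Gsn: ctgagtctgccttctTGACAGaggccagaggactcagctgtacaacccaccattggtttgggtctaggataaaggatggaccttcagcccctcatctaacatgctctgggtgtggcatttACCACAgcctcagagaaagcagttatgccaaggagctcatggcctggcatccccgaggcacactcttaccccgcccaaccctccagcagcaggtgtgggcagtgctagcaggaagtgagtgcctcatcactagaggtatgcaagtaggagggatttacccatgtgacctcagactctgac
The Scin window held 1 match, to the MEIS motif, at position −209 from the start site. The Gsn window held a MEIS match at −235 and a RUNX match at −130. The MEIS motif occurs in 19.2% and the RUNX motif in 16.8% of all 32851 windows of this length. The first Gsn window held no match and the third held a RUNX match at −160. The windows of Flii, Vill and Capg held no match to any of the 6 motifs.
Vil1 had the only CArG box among the members, at −73, a motif found in 1.63% of windows, along with a MEIS and an ETS match. Avil had a GATA and a RUNX match. HOX-PBX matches, present in 8.85% of all windows, were in none of the 9. GATA and ETS motifs were in 11.2% and 16.9% of all windows. These matches describe letters in a window and say nothing of binding.

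The other genes of actin turnover were then examined in 9 lists from general knowledge, with 159 genes, of which 127 were measured. In the limma fit, 0 of the 127 had an adjusted p under 0.05, where 0.0269% of all genes did. At an unadjusted p under 0.05, 3 were higher and 8 lower, together 8.66%. Of all genes 7.23% passed that threshold, 1.78% higher and 5.44% lower. The arrays did not overlap in 5 of them with the knockout higher (3.94%) and in 18 with the knockout lower (14.2%), beside 2.88% and 10.4% of all genes. Their median difference was −0.04, beside −0.03 for all genes, with a range from −0.43 to 0.38. No gene of the 9 lists differed by as much as Scin in either direction, and 2 differed by as much as Gsn, namely Pfn2 and Pls3. The family was selected on the Scin difference, so nothing is read from Scin exceeding these lists.

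ADF/cofilin is the other main system that cuts actin filaments. Of its 20 measured genes and regulators, 0 passed the adjusted test and 1 was called at an unadjusted p under 0.05, with a list median of −0.03. That gene was Cfl1, non-muscle cofilin, at 7.21 ± 0.32 in knockout and 6.84 ± 0.06 in wild-type arrays (SD, n = 3 per group; limma, adjusted p = 0.664), with overlap between the groups. Coro1a, a coronin of white blood cells, differed by −0.24 (limma, adjusted p = 0.755). The list of 17 capping genes had a median of −0.01, with Carmil1, an inhibitor of capping protein, at 0.22 and Tmod4, a pointed-end capper, at −0.24 (limma, adjusted p = 0.656 and 0.635). Of these 17, 6 were under the background level, Tmod4 and Carmil1 included.

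Genes that supply monomers or build filaments gave no adjusted call either. The 6 measured monomer binders had a median of −0.13. The profilin gene Pfn2 had the lowest value of the 127 at −0.43 (limma, adjusted p = 0.476), but stood at 4.64 and 5.07, under the background level. Pfn1, the profilin of most cell types, differed by −0.13. The 7 measured genes of the actin list had a median of −0.04, with Acta2, smooth muscle actin, at −0.23 (limma, adjusted p = 0.547). The list mixes actins with actin-related genes such as Actl6a, and the actin gene Actg1 had no row among the tested genes. The 23 genes of the Arp2/3 complex and its activators had a median of −0.03, with Hcls1, the blood cell cortactin relative, at −0.22 (limma, adjusted p = 0.674). Of that list, 9 further genes, among them Actr2, Actr3 and Arpc2, had no row among the tested genes. The 16 formin and spire genes had a median of −0.04, with the formin Daam1 at 0.25 and Cobll1 at −0.29 (limma, adjusted p = 0.601 and 0.653).

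Binders, lipid kinases and partners of the family completed the lists. The 26 crosslinkers and filament binders had a median of −0.03, and the bundling protein gene Pls3 differed by −0.42 and Espn by −0.21 (limma, adjusted p = 0.599 and 0.608). The 7 genes of the phosphoinositide kinase list, drawn up for PIP2, the lipid that inhibits gelsolin, were all below 0. Their median was −0.10, beside −0.03 for all genes, and 0 were called at an unadjusted p under 0.05. Of the 7, Pip5kl1 was under the background level. Pip5k1c and Pip5k1a differed by −0.20 and −0.10 (limma, adjusted p = 0.768 and 0.817). Of 5 measured headpiece relatives and Flii partners, Ablim1 differed by −0.27 (limma, adjusted p = 0.486). The list median was −0.12, and Lrrfip2, whose protein binds Flii, differed by −0.04.

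**Figure D3:**
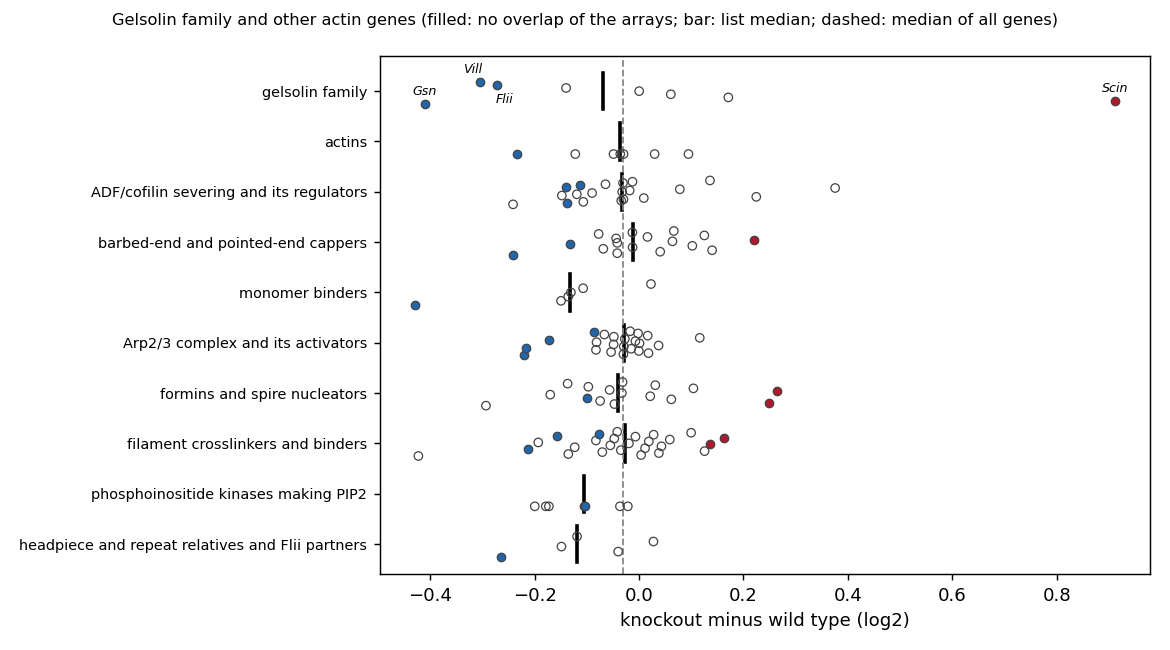
Knockout minus wild-type difference (log2, horizontal axis) of the gelsolin family and of the measured genes of 9 actin lists, 1 circle per gene; filled circles are genes whose knockout and wild-type arrays do not overlap, black bars are list medians and the dashed line is the median of all genes at −0.03. Scin at 0.91 lies beyond every other gene drawn, and Gsn at −0.41 has 2 other genes at or below it. The family was selected on the Scin difference, so the place of Scin is a description.

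The 2 nearest measured genes on each side of every member on its chromosome, 32 in all, were compared next. In the limma fit, 0 passed after adjustment. At an unadjusted p under 0.05, 3 were lower (9.38%) and 0 higher, beside 5.44% and 1.78% of all genes. The arrays did not overlap in 4, all lower (12.5%), beside 10.4% of all genes. Their median difference was −0.04 and their range −0.29 to 0.26. None of the 4 neighbours of Scin had groups without overlap. Ifrd1 and Zfp277 differed by 0.22 and 0.15 with standard errors of 0.16 each, and Meox2 by −0.29 with 0.13. Agmo, the fourth, differed by 0.05, and Meox2 and Agmo were under the background level. Around Flii, Llgl1, a cell polarity gene, and Mief2, a mitochondrial fission factor, differed by −0.26 each, close to the −0.27 of Flii itself. Flii and Llgl1 overlap by 44 bases in RefSeq, and probe positions in that stretch were not analysed here. The third neighbour called was Elmod3, beside Capg, at −0.22. No neighbour of Gsn or Vill was called.

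Genes whose pattern over the 6 arrays was most like that of Scin were found by distance. Each gene was centred on its own mean, and the root mean square difference to Scin was taken over the 6 arrays. The search covered 9659 genes with a mean above the background level. Members of the family and predicted genes (Gm or RIKEN names) were left out of it. The nearest was Tph1, a tryptophan hydroxylase that starts serotonin synthesis in mast and gut cells, at a distance of 0.13 log2 units. Its levels were 9.26, 8.97 and 9.45 in the knockout and 8.58, 8.17 and 8.44 in wild-type cells, so that knockout 3 was highest and knockout 2 lowest of the knockout arrays, as in Scin. Maob, a monoamine oxidase, followed at 0.16, then Kif21a, a kinesin, at 0.18, Gzmb, granzyme B, at 0.18 and Satb1, a chromatin organiser, at 0.18. The median distance over all eligible genes was 0.51. The distance of Gsn to Scin was 0.69, and those of Vill, Flii and Vil1 were 0.63, 0.61 and 0.55, all above that median, while Avil, Svil and Capg lay at 0.39, 0.46 and 0.48. The distance takes in the difference between the groups for which Scin was chosen, so these genes are a description.

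**Figure D4:**
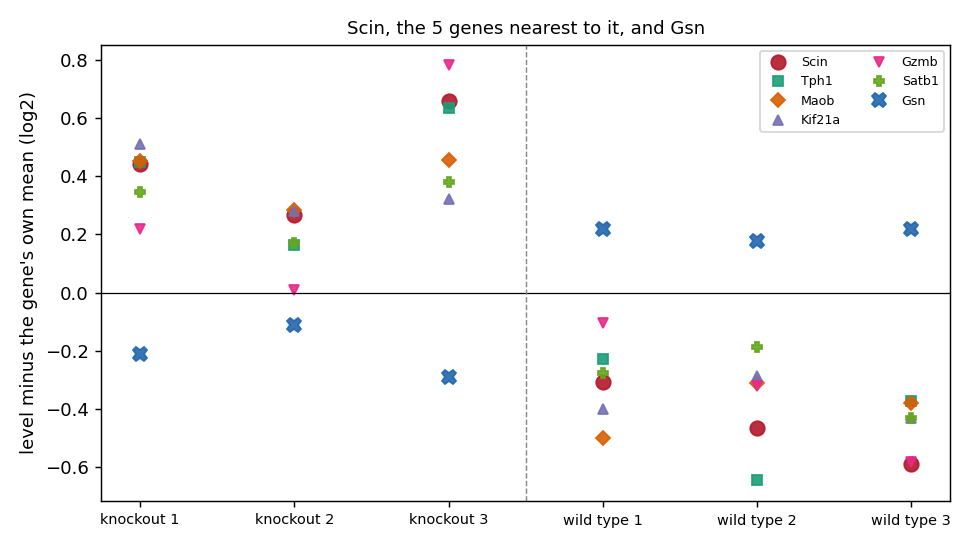
Level minus the gene's own mean (log2, vertical axis) on the 6 arrays for Scin, the 5 genes at the shortest distance to it and Gsn. The Scin points lie above 0 on the 3 knockout arrays and below 0 on the 3 wild-type arrays, with the Gsn points the other way round.

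Markers of cell types that the cultures could hold were measured beside these results. In bulk RNA, fewer cells of a type and less RNA per cell cannot be told apart. Sums are of linear values, in units of 1000. All 8 measured megakaryocyte and platelet markers had a difference above 0, with a median of 0.19, and 0 were under the background level. Their sum was 2.98 to 3.25 in the knockout and 2.41 to 2.66 in wild-type cells, without overlap and in the direction of Scin. Of these, Selp and Ppbp differed by 0.60 and 0.49 (limma, adjusted p = 0.110 and 0.316). A linear sum weighs genes with high values most, and Ppbp stood at 10.30 in knockout and 9.81 in wild-type arrays. The sum without Ppbp was not taken. Of 9 mast cell and basophil markers, 5 were above 0 and 4 below, with a median of 0.07 and sums of 12.0 to 14.1 and 11.9 to 12.9. Fcer1a, the IgE receptor alpha chain, differed by 0.98 and Prss34, a basophil protease, by −0.47 (limma, adjusted p = 0.392 and 0.659). The part of these cells in the Scin difference was not tested.

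Other marker lists were set beside the lower members. Of 9 monocyte and macrophage markers, 6 were below 0, with a median of −0.02 and sums of 6.44 to 9.07 in the knockout and 7.46 to 8.91 in wild-type cells. Adgre1, a surface antigen of mouse macrophages, differed by −0.82 (limma, adjusted p = 0.0860). Of 6 eosinophil markers, 4 were below 0 and 2 above, with a median of −0.50 and 2 under the background level. Their sums, 1.55 to 2.46 and 2.17 to 3.29, overlapped. Siglecf, higher by 0.29 (limma, adjusted p = 0.538), was the 1 marker of this list without overlap between the groups. Of 9 lymphoid markers, 3 were above 0 and 6 below, with a median of −0.08 and 4 under the background level. Their sums, 2.89 to 3.46 and 3.85 to 4.42, did not overlap, in the direction of Gsn. Most of each sum was Thy1, a surface protein that is not particular to lymphoid cells, at −0.42 (limma, adjusted p = 0.447). Without Thy1, the sums of the other 8 were 0.468 to 0.497 and 0.448 to 0.479, with overlap. Cd79b, a subunit of the B cell receptor, differed by 0.33 (limma, adjusted p = 0.693), with all knockout arrays above all wild-type arrays. The 12 stromal, endothelial and muscle markers had a median of −0.05, with 10 below 0, 8 under the background level and Pdgfrb at −0.34 (limma, adjusted p = 0.328). The 12 neutrophil markers had a median of 0.13 and sums of 49.2 to 54.1 and 48.1 to 50.2. The 7 erythroid markers had a median of −0.05, with 4 under the background level, and the 10 epithelial, tuft and brush border markers had a median of −0.02. The part of any of these cells in the Gsn, Flii and Vill differences was not tested.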

How the data were processed

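RNA of 6 cultures was hybridised to Affymetrix whole-transcript arrays. The deposited table holds log2 values. The submitters' processing notes name RMA and Expression Console, with no version or settings. RMA makes the arrays' distributions alike, so a change in total RNA cannot be seen. Values ran from 0.90 to 13.74.

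Rows were named by the platform annotation. Of 23332 rows, 14996 had 1 symbol, 1019 several and 7317 none. The row with the highest mean was kept per gene. Of 14860 genes, 14805 were placed in the RefSeq table (GRCm38.p6).

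Genotypes were compared with limma 3.58.1 in R 4.3.3 (lmFit, eBayes, no trend), two-sided, with Benjamini-Hochberg adjustment over all 14860 genes. An exact permutation test of 3 against 3 cannot go below p = 0.1 and was not used. The fit was tested on simulated data. No label ties an array to an animal, so p-values reflect array-to-array spread, which may be technical, and 6 arrays limit the precision; the median standard error was 0.10. Members and lists were chosen with earlier results of these data known. Named genes were all members, up to 4 genes of each list by smallest p, the Scin neighbours, other neighbours at an unadjusted p under 0.05, and the 5 genes nearest to Scin; Trpm5, Dclk1 and the genes without a row were chosen after their values were seen. Figures were drawn with matplotlib 3.10.9.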

Additional observations from a re-analysis of the deposited data

How the results depend on the processing

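The 8 member differences and the shift of Scin against Gsn were recomputed under 11 alternatives each, and each moved by less than 1 SD of its replicates. Many of these alternatives could not have gone past that limit. Leaving out 1 of 3 arrays cannot move a mean by 1 SD, and averaging rows changes nothing for genes with 1 row. Centring each array leaves the shift of Scin against Gsn as it was. Scin ran from 0.77 to 1.01, Gsn from −0.46 to −0.37, Flii from −0.29 to −0.25, Vill from −0.32 to −0.27 and the shift from 1.14 to 1.46. Capg turned sign in 3 of the 11, between −0.09 and 0.06. The count of all genes called, 4, was less stable: 2 with each array centred on its median, 13 with only genes above the olfactory receptor percentile, 9 with limma-trend, 16 with array weights (the cause was not tested) and between 0 and 1 with 1 array left out. The actin lists and the neighbours had 0 calls under all 14 alternatives. With at most 16 of all genes called in any setting, 0 in groups this small was likely in any case, so nothing is read from it. Avil ran from 0.09 to 0.25. List medians of the actins and of the cappers, near 0, turned sign in 1 and 3 of 11 alternatives. The share of higher genes among those at an unadjusted p under 0.05 was 24.7%, against 35.3% after median centring and 36.6% after a further quantile normalisation. No paired analysis was possible because the 3 wild-type titles all carry the same number. Each member had 1 row, so rows of one gene could not be compared. Scanner files were not used here, so signal over background was judged only by the olfactory receptor genes.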
